A study of Homo sapiens with 36 samples.

Results

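The genes described here are 10 parts of the nuclear end of the Hippo pathway: the 4 TEAD transcription factor genes (TEAD1, TEAD2, TEAD3 and TEAD4), the cofactor genes VGLL3, VGLL4, YAP1 and WWTR1, and the target genes CTGF and CYR61. They were listed by name and chosen by the CPM of the 6 groups, in which TEAD1 rose under MEIS2 activation, so all values of MEIS2-OE against its control are given as a description without a test. The count table lists 28516 genes, 19689 of them had at least 10 counts summed over all libraries and were tested, and all 10 Hippo genes were among these. The values are CPM, that is, counts scaled to a common library total.

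TEAD proteins bind DNA but activate transcription only with a partner. YAP1 and TAZ, the product of WWTR1, are such partners, and the Hippo kinases hold them in the cytoplasm by phosphorylation when cells are crowded. VGLL proteins bind TEADs at a surface that YAP1 and TAZ also use, and VGLL4 is known as a competitor of YAP1. CTGF (now CCN2) and CYR61 (now CCN1) encode secreted matrix-associated proteins and are widely read as indicators of YAP and TAZ activity. In neural progenitors the pathway is known for its part in expansion and in the delay of differentiation.

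RNA-seq was performed on cultured human neural stem cells (hNSC), a commercially supplied line, harvested 48 h after lentiviral transduction, with 6 groups of 6 libraries. For CRISPR-activation, in MEIS1-OE and MEIS2-OE, a Cas9 that does not cut, fused to the activator VP64, and the MPHv2 activator vector were delivered with guides to MEIS1 or MEIS2, and ctrl-OE carried the same system with a non-targeting guide. In MEIS1-KO and MEIS2-KO a cutting Cas9 (lentiCRISPRv2) was given with guides against MEIS1 or MEIS2, and ctrl-KO had the cutting Cas9 with a non-targeting guide. For the knockouts, viruses with different guides to the same gene were combined in equal parts, and cells were harvested as populations, not clones, so cells with different edits are averaged there. The activation system does not cut, and the methods list a single activation guide for each gene. Whether the 6 libraries of a group came from separate cultures is not given in the sources used here. P-values therefore measure the spread between these libraries, which may be technical.

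MEIS1 reached 310.2 ± 14.3 CPM (SD, n = 6) in MEIS1-OE against 17.8 ± 1.10 in ctrl-OE, and MEIS2 reached 824 ± 20.04 CPM in MEIS2-OE against 22.6 ± 1.23. MEIS1 stood at 8.96 ± 1.74 CPM in MEIS1-KO against 25.7 ± 1.66 in ctrl-KO, and MEIS2 at 12.1 ± 0.936 CPM in MEIS2-KO against 25.8 ± 1.58, so the targeted gene followed the label in each of these groups. The libraries held 15429985 to 22940493 counts. Of 10 neural stem cell markers, 9 or 10 reached 1 CPM in at least 1 library of each group, and neither of 2 pluripotency markers did. HES5 reached it in ctrl-OE only, at 0.0487 to 1.67 CPM. Later counts of markers at 1 CPM or more follow the same rule unless a mean is named. Over all genes with a mean of at least 1 CPM, 3 libraries stood apart from the others of their group, with root mean square distances of 0.317 to 0.367 on the log2 scale against 0.144 to 0.273 for the rest. They were ctrl-OE replicate 6, MEIS1-OE replicate 3 and MEIS1-KO replicate 6, and results that rest on them are given with and without them.

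The promoter of CTGF is shown because it is the region of this gene set in which the TEAD sequence GGAATG was found most often. The 250 bases before its start, chr6:131951373-131951622 on the minus strand (GRCh38.p14, sequence from RefSeq), read as follows, with GGAATG in capitals.
CTGF promoter: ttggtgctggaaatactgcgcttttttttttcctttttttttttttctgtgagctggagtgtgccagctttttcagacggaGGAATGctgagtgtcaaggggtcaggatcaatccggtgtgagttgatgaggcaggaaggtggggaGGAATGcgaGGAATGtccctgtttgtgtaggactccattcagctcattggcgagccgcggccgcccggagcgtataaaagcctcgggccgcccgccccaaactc
The matches begin 169, 104 and 95 bases before the start. Windows of 300 bases, from 250 before to 50 after a start, were searched on both strands for GGAATG and for the MEIS sequence TGACAG, and 14.0% and 15.8% of all 35116 windows hold them. Windows were found for 7 of the 10 genes, all but TEAD1, TEAD4 and CYR61. VGLL4, TEAD2 and WWTR1 had more than 1 window each, while the shares over all windows are per window. YAP1 had 1 GGAATG, 162 bases before its start, and TEAD2 had 1 TGACAG in 1 of its windows, 105 bases before that start. VGLL4 had 1 TGACAG in each of 2 of its windows, and no match to either sequence was present in the windows of VGLL3, TEAD3 and WWTR1. A match is a description of the letters and not a bound site.

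VGLL3 had the largest fitted difference of the 10 genes in MEIS1-OE and between the controls. In MEIS1-OE against ctrl-OE, 4 of the 10 genes changed at an adjusted P under 0.05 (edgeR), where 9.10% of all tested genes did. VGLL3, TEAD3 and VGLL4 rose, against 5.52% of all genes, and WWTR1 fell, against 3.58%. Without the 3 libraries that stand apart, TEAD4 and CYR61 also passed, giving 6 of 10 with 18.4% of all genes called. In MEIS1-KO against ctrl-KO, edgeR and DESeq2 called 0 of the 10, with 1.46% of all genes called by edgeR, and 1 of the 10, CTGF, had an unadjusted P under 0.05, against 11.6%. With the replicate number as a block in edgeR, CTGF was called there, with 2.33% of all genes. In MEIS2-KO against ctrl-KO, YAP1 was the 1 gene called by edgeR, against 10.0% of all genes, with 5.98% of all genes lower. DESeq2 called 2 there, VGLL4 and YAP1, with 14.4% of all genes, and the block called 4, with 12.1%. The MEIS1 contrast, which is the overexpression effect minus the knockout effect, called 1 of 10, VGLL3, with 3.48% of all genes. Without the libraries that stand apart it called TEAD3, VGLL4 and WWTR1 as well, giving 4 of 10 with 7.72% of all genes called. MEIS1-OE and MEIS2-OE share ctrl-OE, and the knockout groups share ctrl-KO, so their values are not independent.

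**Figure D1:**
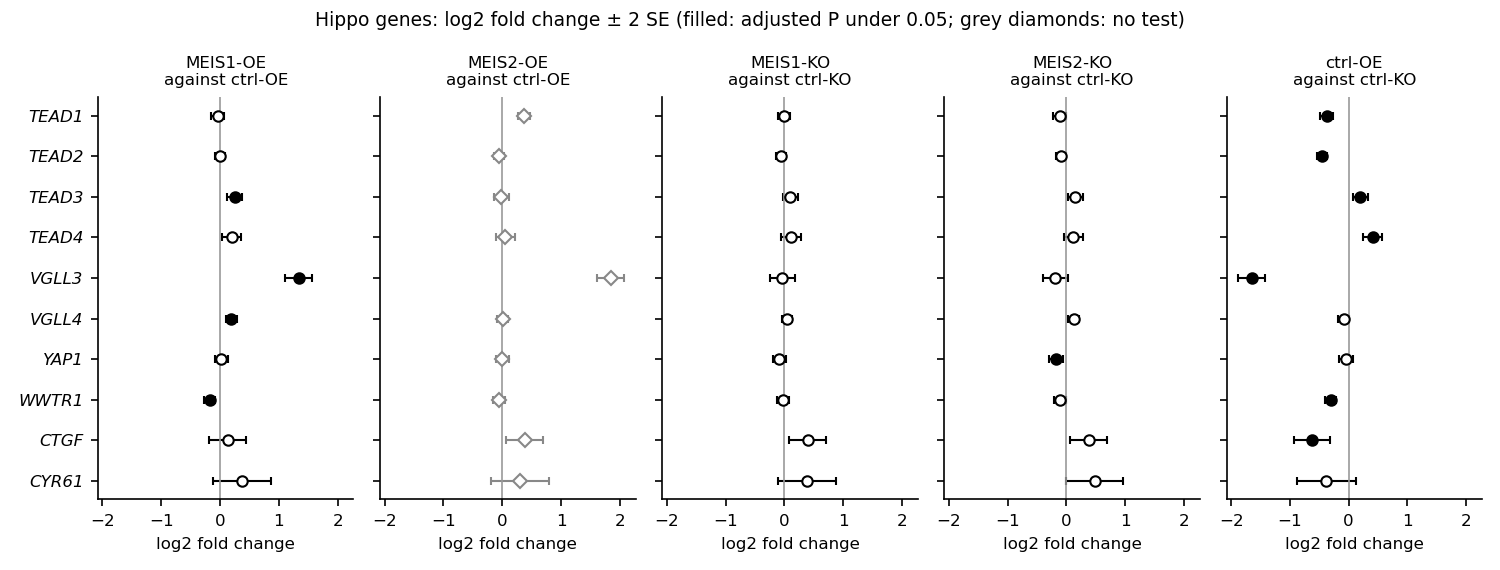
The log2(fold-change) of the 10 genes in 5 comparisons (x axis) with bars of 2 standard errors, filled where the adjusted P was under 0.05; grey diamonds mark MEIS2-OE, which has no test. VGLL3 lies at 1.34 and 1.85 in the overexpression panels and at -1.65 for ctrl-OE against ctrl-KO, and the bars of CTGF and CYR61 are the widest.

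TEAD1 (chr11:12695968-12966284, plus strand, GRCh37) encodes a TEAD factor whose rise in MEIS2-OE led to the choice of these genes. It ran from 162 to 182 CPM in ctrl-OE with a median of 165.5, and from 204 to 232 CPM in MEIS2-OE with a median of 221. Every library of MEIS2-OE lay above every library of ctrl-OE, and the means of 218 ± 11.8 and 169 ± 7.76 CPM gave a log2(fold-change) of 0.37 (SE 0.05), a fold of 1.29. In MEIS1-OE, TEAD1 ran from 146 to 188.5 CPM with a median of 161, a range that contained the whole of ctrl-OE. The fitted log2(fold-change) for MEIS1-OE was -0.04 with an interval of 2 standard errors from -0.15 to 0.07, and edgeR gave an adjusted P of 0.771.

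TEAD1 in MEIS2-OE lay at the level of the knockout groups. Its mean was 219 ± 10.8 CPM in ctrl-KO and 218 ± 10.5 CPM in MEIS1-KO, and the ranges of these groups overlapped that of MEIS2-OE. Ordered from low to high, the groups were MEIS1-OE, ctrl-OE, MEIS2-KO, MEIS1-KO, MEIS2-OE and ctrl-KO, and each neighbouring pair overlapped in its library values. MEIS2-KO, at 202 ± 16.5 CPM, met ctrl-OE only through its replicate 1, at 169 CPM, while its other libraries lay between 202 and 213. Against ctrl-KO, MEIS2-KO differed by -0.12 (SE 0.05) with an adjusted P of 0.167 (edgeR), all 6 libraries lying below the control mean.

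In MEIS2-OE against ctrl-OE, 1.35% of all genes were called at an adjusted P under 0.05 (edgeR). No call is given for the 10 genes there, because this comparison was in view when the genes were listed. In the MEIS2 contrast, which subtracts the knockout effect, TEAD1 stood at 0.49 and VGLL3 at 2.03 on the log2 scale, and in MEIS2-OE against MEIS1-OE they stood at 0.41 and 0.51. TEAD2, TEAD3, TEAD4, VGLL4, YAP1 and WWTR1 lay between -0.06 and 0.06 in MEIS2-OE against ctrl-OE.

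TEAD2 was the most abundant TEAD transcript per length and the TEAD gene with the largest fitted difference between the controls. It ran from 131 to 167 CPM in ctrl-OE and from 184 to 205 CPM in ctrl-KO, without overlap. Per kb of exon, its level was 48.65 ± 4.13 CPM in ctrl-OE, against 31.9 ± 1.77 for TEAD3, 15.8 ± 0.725 for TEAD1 and 10.4 ± 1.59 for TEAD4. Without this scaling TEAD1 had the higher mean, at 169 CPM against 145 for TEAD2 in ctrl-OE. The lengths cover all annotated exons, 10.7 kb for TEAD1 and 2.98 kb for TEAD2, and not only the transcripts expressed here. TEAD2 made up 45.55% of the summed TEAD level per kb in ctrl-OE and 54.2% in ctrl-KO, and TEAD1 made up 14.9% in ctrl-OE and 18.6% in MEIS2-OE. The sum itself was 107 ± 6.57 CPM per kb in ctrl-OE, 109.6 ± 5.65 in MEIS2-OE and 123 ± 4.11 in ctrl-KO. No TEAD2 difference was called in MEIS1-OE, MEIS1-KO or MEIS2-KO against their controls.

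TEAD3 and TEAD4 had higher mean CPM in each activation group than in each knockout group. TEAD3 ran from 92.2 to 107 CPM in ctrl-OE with a median of 95.15, and from 93.2 to 126 CPM in MEIS1-OE with a median of 118.5. In MEIS1-OE, 5 of 6 libraries lay above the highest ctrl-OE library and replicate 3, one of those that stand apart, lay among the controls. The rise of 0.25 (SE 0.06) had an adjusted P of 0.00676 (edgeR), with 5.08e-06 to 0.0814 over all alternatives; it was lost without replicate 4 of each group (0.0814) and without replicate 5 (0.0517). TEAD4, the least abundant of the 4, ran from 20.2 to 29.4 CPM in ctrl-OE and from 24.4 to 29.3 CPM in MEIS1-OE, a difference of 0.20 (SE 0.08) with an adjusted P of 0.13 (edgeR). The TEAD4 difference passed without the libraries that stand apart (0.30, adjusted P of 0.00379) and without replicate 6 (0.25, adjusted P of 0.0306), with 0.00379 to 0.424 over the alternatives.

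**Figure D2:**
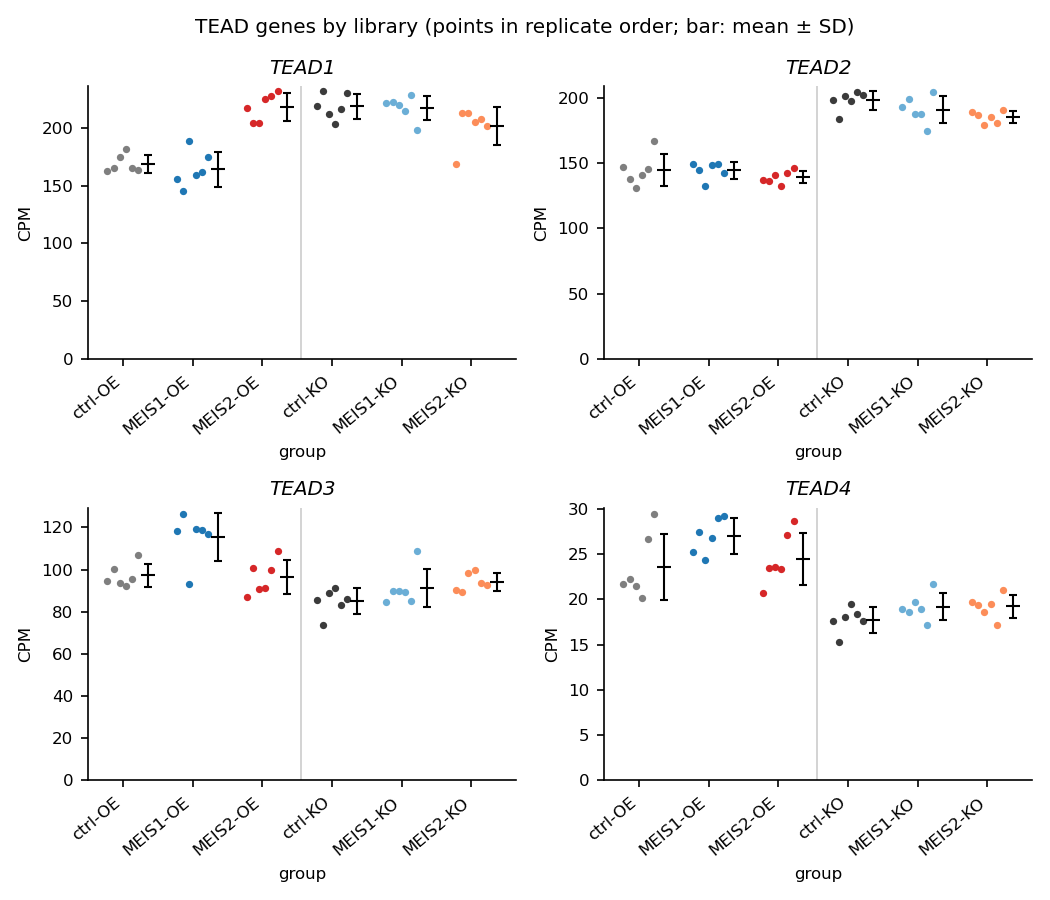
CPM (y axis, from 0) of the 4 TEAD genes in each of the 36 libraries by group (x axis), with points in the order of the replicate numbers and a bar for mean ± SD. The MEIS2-OE points of TEAD1 sit between 204 and 232, above all ctrl-OE points and level with ctrl-KO, and TEAD2 steps up from the activation groups to the knockout groups.

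VGLL3 (chr3:86925538-87040299, minus strand, GRCh37) was lowest in ctrl-OE and higher in every other group. It ran from 16.2 to 21.2 CPM in ctrl-OE with a median of 18.9, from 34.9 to 68.7 CPM in MEIS1-OE with a median of 44.4, and from 60.0 to 82.3 CPM in MEIS2-OE with a median of 63.9. Both overexpression groups lay wholly above the control. Their ranges overlapped each other only through MEIS1-OE replicate 3, at 68.7 CPM, and the next highest library of MEIS1-OE was replicate 1, at 53.2 CPM. MEIS1-OE raised VGLL3 by a log2(fold-change) of 1.34 (SE 0.11), a fold of 2.525, with an adjusted P of 8.05e-12 (edgeR), and 1.18 to 1.41 over the alternatives with adjusted P of 6.87e-29 to 2.67e-06. VGLL3 was the only 1 of the 10 that also passed the size limit of 0.58, which 2.84% of all genes did, and the only 1 without overlap between the groups, where 4.38% of all genes had none.

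The corresponding value for MEIS2-OE was 1.85 (SE 0.11), a fold of 3.595 and the largest of the 10 genes. In the knockout groups VGLL3 had a mean of 59.4 ± 4.43 CPM in ctrl-KO, 58.0 ± 4.88 in MEIS1-KO and 52.0 ± 6.87 in MEIS2-KO, all above ctrl-OE. Its fitted difference was -0.03 in MEIS1-KO (interval of 2 standard errors -0.25 to 0.18) and -0.19 in MEIS2-KO (-0.40 to 0.03). The MEIS1 contrast for VGLL3 was 1.37 (SE 0.16) with an adjusted P of 4.47e-08 (edgeR), and it stayed under 0.05 in every alternative run, with 5.09e-15 to 3.46e-06. Within MEIS1-OE the highest VGLL3 library was replicate 3, which is one of those that stand apart.

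VGLL4, the competitor of YAP1 for TEADs, rose in MEIS1-OE. It ran from 111 to 130.4 CPM in ctrl-OE with a median of 114 and from 128 to 142 CPM in MEIS1-OE with a median of 134, and the groups overlapped only through ctrl-OE replicate 6 and MEIS1-OE replicate 3, which both stand apart. The difference was 0.19 (SE 0.05), with an adjusted P of 0.00331 (edgeR) and 0.000212 to 0.0386 over the alternatives. In MEIS2-OE it stood at 119 ± 4.80 CPM against 118 ± 7.93 in ctrl-OE. The other VGLL genes were nearly silent: VGLL1 had 0 counts in 36 libraries and VGLL2 had a mean of at most 0.0622 CPM in any group.

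YAP1 (chr11:101981178-102104155, plus strand, GRCh37), the main TEAD coactivator gene here by level, had group means between 279.6 and 316 CPM, and per kb of exon it made up 79.8% to 85.1% of the sum of YAP1 and WWTR1 in every group. MEIS2-KO had the lowest values, from 243 to 299.9 CPM with a median of 281, against 298 to 330.4 CPM in ctrl-KO with a median of 318. All 6 libraries lay below the control mean and the ranges overlapped between 298 and 299.9 CPM. The difference of -0.18 (SE 0.06) had an adjusted P of 0.041 (edgeR), with 0.00951 to 0.202 over the alternatives, and the fall was no longer called with size factors of the RLE type (0.0606) and without replicate 1 of each group (0.202), 2 (0.0952), 4 (0.0791), 5 (0.0986) or 6 (0.0554).

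Of the 10 genes, 7 had an unadjusted P under 0.05 in MEIS2-KO, where 23.2% of all genes did. They were TEAD1, TEAD2, YAP1 and WWTR1 with lower means and TEAD3, VGLL4 and CTGF with higher means. The differences ran from -0.18 to 0.37 on the log2 scale, and none passed the size limit. Without the 3 libraries that stand apart, TEAD3 (adjusted P of 0.027), VGLL4 (0.0476) and YAP1 (0.00951) passed in edgeR, giving 3 of 10 with 15.1% of all genes called. None of those libraries is in MEIS2-KO or ctrl-KO, so the libraries compared were the same. Only the shared estimate of the spread and the normalization moved, and the TEAD3 difference was 0.15 in both fits. Over all alternatives the adjusted P ran from 0.027 to 0.336 for TEAD3 and from 0.0365 to 0.216 for VGLL4.

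WWTR1, which encodes TAZ, fell in MEIS1-OE. It ran from 75.5 to 88.2 CPM in ctrl-OE with a median of 81.4 and from 62.3 to 82.1 CPM in MEIS1-OE with a median of 71.6, and 5 of 6 libraries lay below the control mean. The library above it was replicate 3. The fall of 0.18 on the log2 scale (SE 0.05) had an adjusted P of 0.017 (edgeR), with 0.00172 to 0.0936 over the alternatives; the call was lost when only the groups compared were fitted (0.0775) and without replicate 1 of each group (0.0936), 4 (0.0791), 5 (0.0517) or 6 (0.0767).

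**Figure D3:**
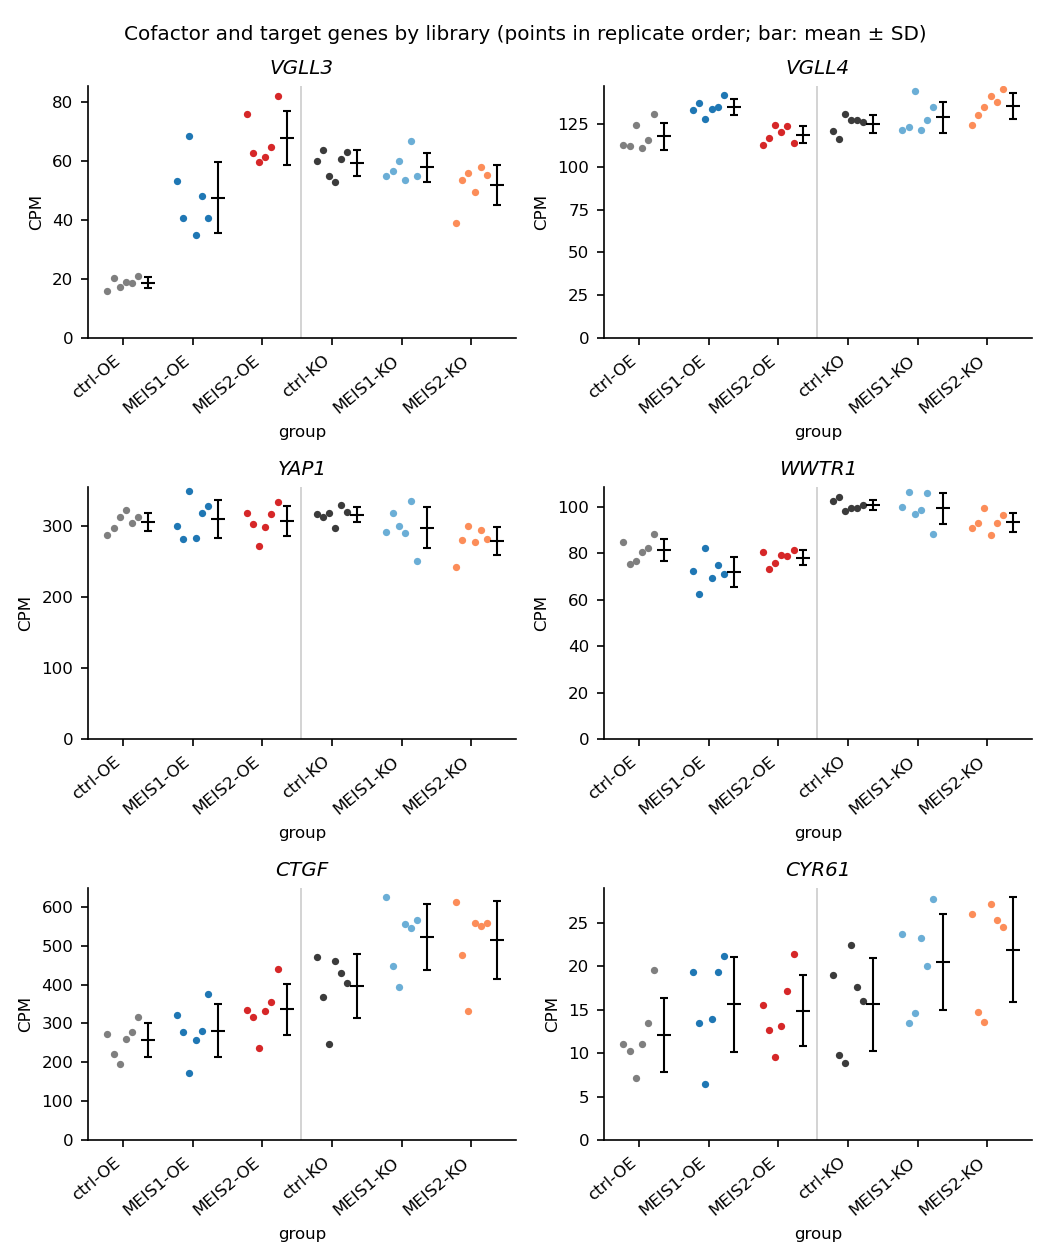
CPM (y axis, from 0) of the 4 cofactor genes and of CTGF and CYR61 in each of the 36 libraries by group (x axis), with points in the order of the replicate numbers and a bar for mean ± SD. VGLL3 is low only in ctrl-OE, YAP1 is nearly level, and CTGF is lowest at the third point of each group.

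CTGF (chr6:132269316-132272512, minus strand, GRCh37) was the most abundant of the 10 genes per length, at 110.2 ± 18.5 CPM per kb in ctrl-OE and 169.5 ± 35.1 in ctrl-KO, and CYR61 was among the least, at 3.28 ± 1.14 and 4.23 ± 1.44. CTGF ran from 247 to 469.7 CPM in ctrl-KO with a median of 416, from 393 to 625 CPM in MEIS1-KO with a median of 551, and from 332 to 611 CPM in MEIS2-KO with a median of 553. The knockout groups overlapped the control, and 5 of 6 libraries of each lay above its mean.

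The CTGF difference was 0.40 (SE 0.16) in MEIS1-KO with an adjusted P of 0.251 and 0.37 (SE 0.16) in MEIS2-KO with an adjusted P of 0.126 (edgeR), so neither passed in that fit. In MEIS2-KO it passed without replicate 3 of each group (0.37, adjusted P of 0.0159 in edgeR, and 0.000278 to 0.259 over the alternatives). With the replicate number as a block, which compares libraries of the same number, CTGF passed in MEIS1-KO (0.41, adjusted P of 0.00027 in edgeR) and in MEIS2-KO (0.38, 0.000278), and its same-numbered libraries were higher than ctrl-KO for all 6 numbers in each knockout. CYR61 differed by 0.38 (SE 0.24) and 0.48 (SE 0.24), with adjusted P of 0.6 and 0.23, and the block gave 0.49 with an adjusted P of 0.00786 (edgeR) in MEIS2-KO. In the overexpression groups, CTGF had a mean of 258 ± 43.2 CPM in ctrl-OE, 281.5 ± 67.3 in MEIS1-OE and 336 ± 65.6 in MEIS2-OE, and CYR61 had 12.1 ± 4.21, 15.7 ± 5.45 and 14.9 ± 4.13. The differences were 0.13 for CTGF and 0.38 for CYR61 in MEIS1-OE, and 0.38 and 0.31 in MEIS2-OE. The MEIS1-OE value of CYR61 became 0.72 with an adjusted P of 0.018 (edgeR) without the libraries that stand apart, where the highest control library and the lowest MEIS1-OE library of this gene are both left out, and its adjusted P ran from 0.018 to 0.71 over the alternatives.

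CTGF and CYR61 varied together from library to library. Over 36 libraries, after subtracting the group means from log2 CPM, Pearson's r was 0.91 and Spearman's rho 0.92, with a permutation P of 1e-05 for each, the smallest that 100000 permutations within groups can give, and an adjusted P of 6e-05 over 6 pairs of genes. Without the 2 libraries farthest from the median of CTGF, r was 0.88, and within the groups it lay between 0.869 and 0.962. The lowest CTGF library was replicate 3 in all 6 groups, at a mean of 68.5% of the group mean, and replicate 3 was the lowest for CYR61 in 5 groups. Without replicate 3 of every group r was 0.84, and after removing the means of the replicate numbers it was 0.653, without a test. The permutation treated the libraries of a group as interchangeable. A shift shared by a replicate number across groups would break this, so the permutation P may be too small. Whether a number marks a shared day or culture is not given in the sources used here.

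**Figure D4:**
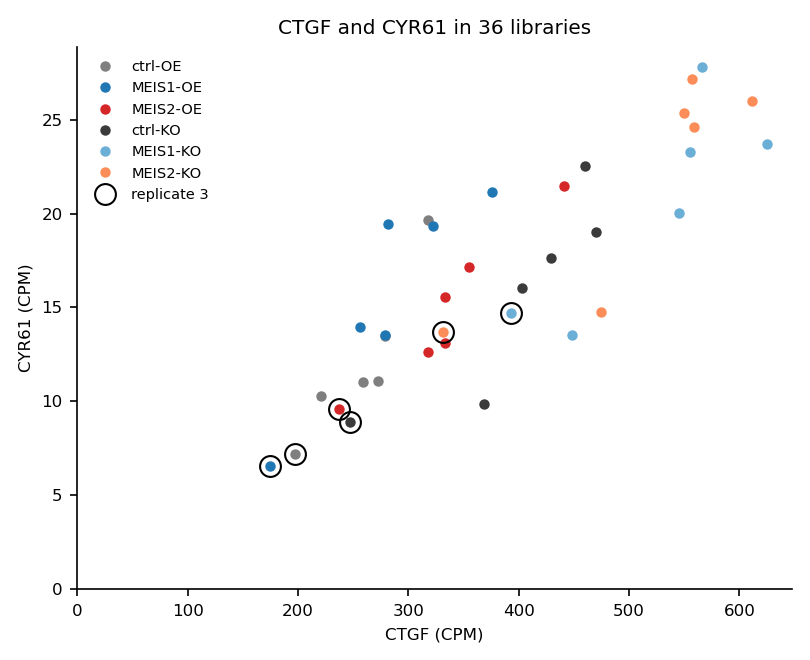
CYR61 (y axis, CPM) against CTGF (x axis, CPM) in the 36 libraries, coloured by group, with replicate 3 of each group ringed. Points rise together within each group, and the ringed points lie at the low end of their groups.

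Of the other pairs examined, YAP1 and WWTR1 also varied together, with r of 0.66 (permutation P of 0.00029, adjusted P of 0.00087), rho of 0.57 (permutation P of 0.00154, adjusted P of 0.00462) and r of 0.61 without the 2 farthest libraries. The value differed between groups, from -0.06 in ctrl-KO to 0.95 in MEIS1-KO. For TEAD1, r was -0.21 with CTGF and -0.32 with CYR61, and for YAP1 it was -0.12 and -0.17, with permutation P of 0.0962 to 0.509 and adjusted P of 0.192 to 0.509. Spearman's rho for these pairs lay between -0.21 and -0.07, with permutation P of 0.258 to 0.715 and adjusted P of 0.516 to 0.715. After removing the means of the replicate numbers, r was -0.151 and -0.533 for TEAD1 and -0.0395 and -0.292 for YAP1, in the same order and without a test, and 0.692 for YAP1 with WWTR1. In MEIS2-OE alone these r were positive and high, 0.824 and 0.835 for TEAD1 and 0.952 and 0.972 for YAP1, while in the other groups they lay between -0.653 and 0.0811. Whether the groups differ in r was not tested.

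The comparison of the controls, ctrl-OE against ctrl-KO, called 7 of the 10 genes. This comparison also called 51.4% of all genes, 27.5% higher and 23.9% lower, against 9.10% in MEIS1-OE, so the count of 7 stands against a much higher background than the 4 of MEIS1-OE. TEAD3 (0.20) and TEAD4 (0.41) were higher in ctrl-OE, and VGLL3 (-1.65), CTGF (-0.62), TEAD2 (-0.45), TEAD1 (-0.37) and WWTR1 (-0.31) were lower, with adjusted P of 2.22e-15 for VGLL3, 1.82e-07 for TEAD1 and 0.000948 for CTGF (edgeR). The groups did not overlap for 6 of the 10, all of these but CTGF, where 31.8% of all genes had no overlap. TEAD1 was chosen by a rise measured from ctrl-OE. Low TEAD1 values in ctrl-OE favour both that choice and its difference from ctrl-KO, so its adjusted P here is not independent of the choice. The TEAD3 call was lost without replicate 2 (adjusted P of 0.0746 in edgeR, and 0.00366 to 0.0746 over the alternatives). Without the libraries that stand apart, VGLL4 (-0.11, adjusted P of 0.0287 in edgeR) and CYR61 (-0.57, 0.0246) passed as well, with 53% of all genes called.

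The vectors, the Cas9 forms and the amounts of virus differ together between these systems and cannot be told apart. Marker genes of the labelled cell type and of other cell types moved with them. The neural stem cell markers SOX2, SOX1, PAX6, FABP7, NES and MSI1 were lower in ctrl-OE, without overlap. SOX2 ran from 97.6 to 169 CPM in ctrl-OE and from 270 to 311 in ctrl-KO. NOTCH1 lay the other way with overlap, at 85.6 to 159 CPM and 57.9 to 109, and VIM, HES1 and HES5 overlapped. Of 8 mesenchymal markers, 7 were at 1 CPM or more. The sum of all 8 was 474 to 658 CPM in ctrl-OE and 745 to 990 in ctrl-KO. That of 7 neuronal markers, 4 or 5 of them at that level, was 436 to 598 and 932 to 964. The sum of 5 astrocyte markers, 2 or 3 of them at that level, was 113 to 128 CPM in ctrl-OE and 237 to 257 in ctrl-KO, and that of 4 endothelial markers was 108 to 144 and 163 to 174. Single genes made up most of the steps in these sums: COL3A1 ran from 154 to 240 CPM in ctrl-OE and from 465 to 618 in ctrl-KO, MAP2 from 252 to 306 and from 679 to 760, GJA1 from 110 to 126 and from 233 to 253, and KDR from 74.1 to 109 and from 120 to 133. Other genes of the same lists lay the other way, with COL1A1 at 43.7 to 92.6 CPM in ctrl-OE and 22.4 to 44.4 in ctrl-KO, PDGFRB at 78.1 to 103 and 65.6 to 77.3, and TUBB3 at 136 to 262 and 116 to 203, of which COL1A1 and TUBB3 overlapped between the controls. The defining markers RBFOX3 and STMN2 (neurons), GFAP (astrocytes) and DCN (fibroblasts) were at most 0.353 CPM in these libraries. Their part in the result was not tested. In bulk RNA, fewer cells of a type and less RNA per cell cannot be told apart.

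The direct comparison of MEIS1-KO with MEIS2-KO, in which ctrl-KO cancels, called 0 of the 10 genes in edgeR and in DESeq2, with 0.0152% of all genes called by edgeR. At an unadjusted P under 0.05 there was 1, against 5.68% of all genes. It was TEAD1, with a difference of 0.11 (MEIS1-KO minus MEIS2-KO). For CTGF the difference was 0.02, with an interval of 2 standard errors from -0.29 to 0.33.

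Other members of the pathway were taken from 4 lists, 3 genes of which (AMOTL2, LATS2 and PTPN14) stand in 2 lists. Of 17 kinases and adaptors, 1 was lower in MEIS1-OE, where 3.58% of all genes were: TNIK, a kinase of the MAP4K family, at 84.9 ± 4.45 CPM against 101 ± 4.64, a difference of -0.24 (SE 0.05) with an adjusted P of 0.00016 (edgeR). The list had a median log2(fold-change) of -0.01 there, against 0.00 for all genes. In MEIS1-KO and MEIS2-KO edgeR and DESeq2 called 0 of 17, with 3 and 9 at an unadjusted P under 0.05, against 11.6% and 23.2% of all genes. Without the libraries that stand apart, 4 of 17 were called in MEIS1-OE and 7 of 17 in MEIS2-KO, where 18.4% and 15.1% of all genes were called, so that the count in MEIS1-OE is near the background. None of those libraries is in MEIS2-KO or ctrl-KO, so that count moved with the shared fit and not with the libraries compared. In MEIS2-KO the replicate block called 3 and a fit of only the groups compared called 5, with 12.1% and 14.2% of all genes called. LATS2, which phosphorylates YAP1 and TAZ, was 0.22 higher in MEIS2-OE than in ctrl-OE, a value without a test.

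Of 19 upstream regulators and junction proteins, AJUBA rose in MEIS1-OE, MEIS1-KO and MEIS2-KO. AJUBA is a LIM-domain protein that holds LATS kinases at junctions, and it had 172.5 CPM in MEIS1-OE against 137 in ctrl-OE, and 202.5 in MEIS1-KO and 201 in MEIS2-KO against 172 in ctrl-KO. Its differences were 0.33, 0.23 and 0.22, with adjusted P of 3.18e-07, 0.00177 and 0.000823 (edgeR). AJUBA had no overlap with the control in these comparisons, where 4.38%, 1.39% and 6.44% of all genes had none. The knockout values share ctrl-KO. In MEIS1-OE the cadherin gene FAT4 also rose (0.40) and WWC2 fell by 0.16, so that 3 of 19 changed; in MEIS1-KO FRMD6 (0.21) made 2 and in MEIS2-KO AMOTL1 (0.24), FRMD6 (0.21) and AMOTL2 (0.41) made 4. The shares of all genes called in these comparisons were 9.10%, 1.46% and 10.0%. Without the libraries that stand apart, 7 of 19 were called in MEIS1-OE, against 18.4% of all genes.

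A list of 20 further YAP and TAZ target genes had called members in the upward direction only in each knockout. In MEIS1-KO 5 rose and 0 fell, with a median log2(fold-change) over the list of 0.16 against 0.00 for all genes, and in MEIS2-KO 6 rose and 0 fell, with a median of 0.13 against -0.01. Background shares in the upward direction were 1.03% of all genes in MEIS1-KO and 4.04% in MEIS2-KO, and both comparisons use ctrl-KO. AXL, a receptor tyrosine kinase, rose from 45.4 ± 2.78 CPM in ctrl-KO to 61.1 ± 5.29 in MEIS1-KO and 64.6 ± 3.38 in MEIS2-KO, with adjusted P of 0.000315 and 4.99e-06 (edgeR). GADD45A, a stress-inducible gene, rose by 0.35 and 0.41, and NT5E, which encodes a cell-surface nucleotidase, by 0.43 and 0.30. CRIM1 rose by 0.28 in each. AMOTL2 rose by 0.41 in MEIS2-KO and stood at 0.33 in MEIS1-KO without passing, and the knockouts differed by -0.07 with an adjusted P of 0.955 (edgeR). Counts over the alternatives ran from 4 to 10 in MEIS1-KO and from 5 to 8 in MEIS2-KO. The summed level of 4 endothelial markers, each at 1 CPM or more in mean, was 161 to 215 CPM in MEIS1-KO and 198 to 236 in MEIS2-KO against 163 to 174 in ctrl-KO. That of 8 mesenchymal markers, 7 of them at that level, was 859 to 1180 and 848 to 1080 against 745 to 990, and within it COL1A1 ran from 41.5 to 95.7 CPM in MEIS1-KO and from 51.4 to 93.0 in MEIS2-KO against 22.4 to 44.4 in ctrl-KO, overlapping the control in MEIS1-KO and not in MEIS2-KO. DCN was at most 0.388 CPM in these groups. Of the neural stem cell markers, SOX1 lay at 81.5 to 94.4 CPM in MEIS1-KO and 72.5 to 86.4 in MEIS2-KO. Its range in ctrl-KO was 95.7 to 102. PAX6 also lay below ctrl-KO in each knockout without overlap, where 1.39% and 6.44% of all genes had none. SOX2 ran from 223 to 284 and from 214 to 269 CPM against 270 to 311, without overlap in MEIS2-KO only. NES and VIM had higher ranges, with VIM at 2350 to 3020 and 2670 to 3230 CPM against 2220 to 2450. NES overlapped the control in each knockout, and VIM did in MEIS1-KO. FABP7, MSI1, NOTCH1, HES1 and HES5 overlapped it in each knockout. The part of these markers in the result was not tested.

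ANKRD1, a muscle- and stress-associated ankyrin repeat gene and an often used YAP target, was higher in each MEIS group than in its own control. It ran from 17.2 to 30.4 CPM in ctrl-OE and from 37.7 to 78.8 CPM in MEIS1-OE, and from 19.4 to 36.97 CPM in ctrl-KO, 42.1 to 81.4 in MEIS1-KO and 43.4 to 69.8 in MEIS2-KO. The groups did not overlap their controls in any of these comparisons. Of all genes, 4.38% had no overlap in MEIS1-OE, 1.39% in MEIS1-KO and 6.44% in MEIS2-KO. The differences were 1.01 (SE 0.18) in MEIS1-OE, 0.95 (SE 0.18) in MEIS1-KO and 0.90 (SE 0.18) in MEIS2-KO, with adjusted P of 7.35e-05, 0.00155 and 0.000785 (edgeR). MEIS2-OE had a median of 43.6 and a highest value of 70.4 CPM, a difference of 0.95 without a test. The ANKRD1 values of MEIS1-KO and of CRIM1 and AMOTL2 are named because the lists called are short, after their values were seen.

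In MEIS1-OE, AXL also rose (0.23, adjusted P of 0.0219 in edgeR), while F3, the tissue factor gene, fell by 0.46 (0.0112) and IGFBP3, which binds insulin-like growth factors, fell by 0.18 (0.0414). In all, 2 of the 20 rose and 2 fell, where 5.52% of all genes rose and 3.58% fell. The median of the list was 0.03, against 0.00 for all genes. The MEIS1 contrast called 0 of the 20 higher and 4 lower, against 1.14% of all genes, among them NT5E (-0.55, adjusted P of 0.00143 in edgeR), IGFBP3 (-0.35, 0.00599) and MYOF (-0.46, 0.0107). Between the controls 3 were higher and 10 lower in ctrl-OE than in ctrl-KO, against 27.5% and 23.9% of all genes, and the median was -0.30 against 0.05. IGFBP3 stood at 82.0 ± 5.61 CPM in ctrl-OE and 255 ± 14.9 in ctrl-KO, and CCDC80 and MYOF were lower by 0.96 and 1.13 on the log2 scale.

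**Figure D5:**
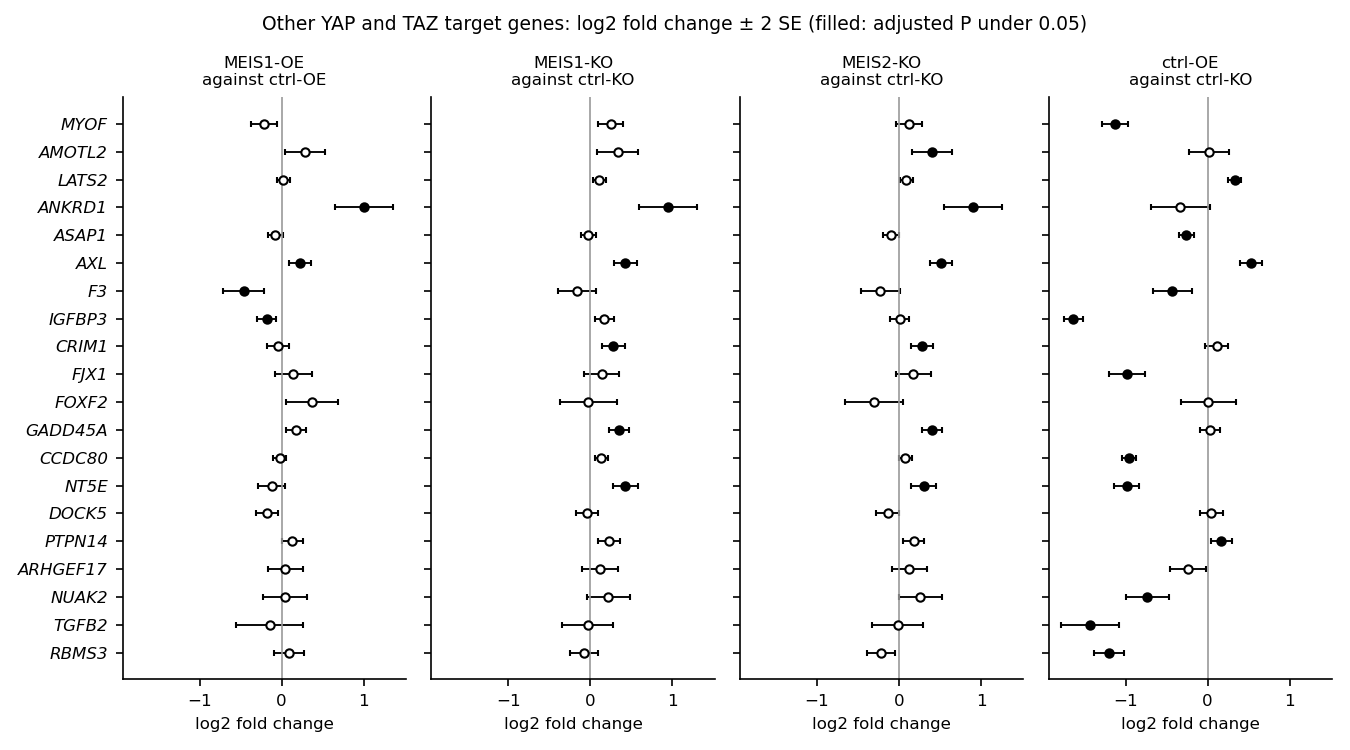
The log2(fold-change) of 20 further YAP and TAZ target genes (x axis) in 4 comparisons, with bars of 2 standard errors, filled where the adjusted P was under 0.05 (edgeR). ANKRD1 lies at 1.01, 0.95 and 0.90 in the MEIS panels, and the ctrl-OE against ctrl-KO panel holds 10 filled points below 0 and 3 above.

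The genes whose pattern was most like that of TEAD1 were RASSF8, PRKCI, DCAF10, TENM3 and RWDD1. They were the 5 with the highest Pearson's r over 36 libraries, of log2 CPM less the mean of the control of the same CRISPR system, among 13463 genes with a mean of at least 1 CPM, and r lay between 0.892 and 0.92. As TEAD1 itself was chosen for this pattern and the libraries share their normalization, r is a description without a test. RASSF8, a Ras-association domain gene, had 64.3 ± 3.01 CPM in ctrl-OE, 65.6 ± 7.08 in MEIS1-OE and 195.5 ± 16.7 in MEIS2-OE, a larger step than that of TEAD1, and mean levels of 71.1 to 78.85 CPM in the knockout groups. PRKCI, which encodes a polarity kinase, had 105 ± 6.77 CPM in ctrl-OE and 129.9 ± 5.34 in MEIS2-OE. Among the 10 genes, VGLL3 ranked 116 by this measure with r of 0.705, and YAP1 ranked 726.

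Of the 10 genes, 6 share their position with a transcript on the opposite strand in the GRCh37 annotation: TEAD1, TEAD2, VGLL4, YAP1, WWTR1 and CTGF. For TEAD2 and VGLL4 these include the protein-coding genes CD37, DKKL1 and ATG7. The library kit keeps the strand, but the strand setting of the counting is not given in the sources used here, so reads of these neighbours cannot be told apart if the strand was not used. TEAD1 and WWTR1 also each share their position with 1 annotated lncRNA on the same strand, which the strand cannot separate.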

How the data were processed

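RNA-seq of hNSC was analysed in 36 libraries, 6 per group. Poly-A RNA was prepared with a strand-keeping kit and sequenced in paired-end mode. Per the labels, the authors trimmed reads with Trimmomatic 0.39 and aligned them to hg19 with STAR 2.7.0a, and deposited whole-number counts per gene and library without normalization. The annotation and strand setting of the counting are not given in the sources used here. Libraries held 15429985 to 22940493 counts, with a median of 20324720.

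Genes whose counts reached 10 in sum across the libraries were fitted together in edgeR 4.0.16 (R 4.3.3, TMM, quasi-likelihood F test, two-sided, 1 coefficient per group), with Benjamini-Hochberg adjustment over all 19689 tested genes. A gene was called changed at an adjusted P under 0.05, and the size limit was an absolute log2(fold-change) above 0.58. CPM used the TMM-scaled totals, and levels per kb used the merged length of all exons of each gene in the GRCh37 annotation. Fits were tested on simulated data. Correlations were computed on log2 CPM (prior count 2), with 100000 permutations within groups (scipy 1.17.1). Alternatives were RLE size factors, other count filters, the replicate number as a block, a fit of the compared groups only, DESeq2 1.42.0, each replicate number left out, and, added after seeing the data, the 3 libraries that stand apart left out.

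The 10 genes and the pathway lists were chosen with earlier results of these data known. Named were all 10 genes, MEIS1 and MEIS2, the up to 3 list genes with the smallest adjusted P in each comparison, and the 5 genes most like TEAD1; other list genes were added with their values in view. The deposited table holds no columns outside the 36 libraries.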

Additional observations from a re-analysis of the deposited data

Results flagged for a closer look

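Of 60 groups of 6 libraries, 4 held a library whose gap to the nearest other, as a share of the range of the group, was above Dixon's critical value. Chance gives about 1 in 20. TEAD1 in MEIS2-KO was lowest in replicate 1, at 169.0 CPM, with a share of 0.753. TEAD2 in ctrl-KO was lowest in replicate 2, at 184.1 CPM, with a share of 0.68. TEAD3 in MEIS1-OE was lowest in replicate 3, at 93.2 CPM (0.714), and in MEIS1-KO it was highest in replicate 6, at 108.7 CPM (0.775). The TEAD3 libraries are both among the 3 that stand apart over all genes.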

How the results depend on the processing

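No called value for the 10 genes changed sign in any alternative. In MEIS1-OE against ctrl-OE, the count of 4 ranged from 2 (without replicate 4 or 5) to 4 when a replicate number was left out. In MEIS2-KO against ctrl-KO, the count of 1 became 0 with RLE size factors, 3 with only the groups compared, 2 with DESeq2 and 3 without the 3 libraries that stand apart, and ranged from 0 to 2 when a replicate number was left out. The 3 libraries that stand apart belong to neither of these groups. The MEIS1 contrast went from 1 to 4 without those libraries. The main fit did not take the replicate numbers as pairing the samples, since the labels do not say what they mark. Over all genes, 46 of 90 same-numbered pairs of libraries had a correlation over 0.1 in their deviations, with a mean of 0.0993. For pairs of other numbers it was 143 of 450, with a mean of -0.021, so same-numbered libraries were more alike on average. Whether the numbers mark a shared batch was not tested. The numbers differed, with a mean of 0.337 and 14 of 15 pairs for number 6, and 0.16 and 10 of 15 for number 1, and 14 of 36 libraries correlated best with their own number. For CTGF, replicate 3 was the lowest in all 6 groups. With the replicate block, the count became 1 in MEIS1-KO (CTGF) and 4 in MEIS2-KO (VGLL4, YAP1, CTGF and CYR61). Counts over the pathway lists moved as well: in MEIS1-OE from 1 to at most 4 kinases and adaptors, from 3 to at most 7 upstream regulators, and from 4 to between 1 and 7 targets. In MEIS1-KO they moved from 2 to between 1 and 4 upstream regulators and from 5 to at most 10 targets, and in MEIS2-KO from 0 to at most 7 kinases and adaptors. In the MEIS1 contrast they fell from 2 to 1 upstream regulators and from 4 to 1 target at the least. The median of all genes moved to at most 0.06. The causes were not tested.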
